A study of Mus musculus with 9 samples.

Results

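Described here are 10 genes of mTORC1 signalling, grouped as its brakes and sensors: Ddit4, Sesn1, Sesn2, Sesn3, Deptor, Tsc1, Tsc2, Flcn, Rragd and Depdc5. They were chosen by name for what their proteins are known to do, with earlier results of these data known. Each symbol was found once in the expression table of every library, among 25175 symbols in all. Transcripts were measured by sequencing poly(A) RNA of the HL-1 line, immortal mouse heart muscle cells of atrial origin kept in Claycomb medium. Each of the 3 groups had 3 libraries: cells given vehicle (0.1% DMSO), cells given ivermectin at 5 µM and cells given importazole at 10 µM, always for 24 h. Ivermectin is an antiparasitic drug that blocks the importin α/β carriers through which many proteins enter the nucleus, and importazole is an inhibitor of importin-β. HL-1 is a single tumour-derived line, and the labels state neither the DMSO content of the cells given a compound nor whether the libraries of a group are separate cultures, so the spread behind each p-value may be technical only.

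The kinase complex mTORC1 drives protein synthesis and cell growth and is switched on at the lysosome. Amino acids bring it there through the Rag GTPases, which the GATOR complexes, the sestrins and folliculin control, while growth factors act through Rheb, which the TSC complex of Tsc1 and Tsc2 holds inactive. Rragd (a Rag GTPase) and Flcn (folliculin) belong to the arm that brings mTORC1 to the lysosome, and are not brakes there. Ddit4 (also called REDD1) acts through the TSC complex and Sesn2 (a leucine-binding sestrin) acts through GATOR, and both genes are known targets of the stress factor ATF4. In heart muscle the pathway couples nutrient supply to cell size.

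Levels are in FPKM, read fragments normalised for transcript length and library total. Differences between groups were taken on log2(FPKM + 1), a scale that shrinks the changes of weakly expressed genes. A gene was called changed when limma's Benjamini-Hochberg adjusted p, over the 11337 genes that reached 1 FPKM in at least 3 libraries, was under 0.05. Read numbers could not be recovered from these values, and library depth is unknown. Between 11055 and 11200 genes per library reached 1 FPKM. Vehicle 2 and ivermectin 3 listed the abundant transcript Yam1 at 0, which held 5.86% to 10.43% of all FPKM elsewhere, and calls that end without these libraries are named with their genes. Deviations from the group means correlated by 0.3067 between vehicle 2 and ivermectin 3, the highest r among pairs of libraries from different groups, and what these libraries share was not tested. All 8 cardiomyocyte markers were at or above a mean of 1 FPKM in every group. Their summed levels were 5562 to 6326 FPKM in vehicle, 4578 to 4982 FPKM in ivermectin and 5190 to 5590 FPKM in importazole. Against vehicle, 0 of the 8 were called higher and 3 lower with ivermectin, and 2 higher and 2 lower with importazole. These were 37.5% and 50% of the 8, beside 4.31% and 2.26% of all genes tested. Summed levels of 6 fibroblast markers were 23.6 to 26.8, 36.8 to 38.9 and 34.4 to 36.9 FPKM in vehicle, ivermectin and importazole. Of these 6 markers 1, the collagen receptor gene Ddr2, averaged at least 1 FPKM in each group, and Pdgfra was under 0.1 FPKM throughout. Ddr2 was called higher with ivermectin and with importazole (limma adjusted p = 7.02e-04 and 0.00379). Summed levels of 4 macrophage markers were 0.806 to 2.30 FPKM over all libraries. Of 5 endothelial markers, which summed to 8.97 to 11.45 FPKM, 3 averaged at least 1 FPKM in vehicle and 2 in each compound group. Kdr was the highest, at means of 8.24, 7.18 and 8.49 FPKM in vehicle, ivermectin and importazole, while Cdh5 was under 0.1 FPKM throughout. The 3 smooth muscle markers summed to 1020 to 1244 FPKM, nearly all of it the actin gene Acta2. The part of these markers in the results below was not tested, and in bulk RNA fewer cells of a type and less RNA per cell cannot be told apart.

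In these cells 9 of the 10 genes were expressed well enough to be tested. Per unit of transcript length, Rragd, the RagD GTPase gene, and Tsc2 stood highest in vehicle at 23.3 ± 2.32 and 20.9 ± 0.791 FPKM (mean ± SD, n = 3), with overlapping libraries. Ddit4 (13.5 ± 0.595), Flcn (12.5 ± 0.827) and Sesn3 (11.3 ± 1.06 FPKM) followed, each overlapping the next in that order. Sesn1 (8.11 ± 0.696), Sesn2 (7.85 ± 0.579), Depdc5 (7.22 ± 0.324) and Tsc1 (6.69 ± 0.278 FPKM) formed a lower tier in which each overlapped its neighbour. Deptor, whose protein binds and inhibits mTOR directly, was at 0.112 to 0.403 FPKM across the 9 libraries, did not pass the filter, and had no test. The order was different in the compound groups. With ivermectin Sesn2 stood above Sesn3, Sesn1 and Ddit4, overlapping the first of these, and with importazole Flcn stood above Ddit4, with both overlapping in their libraries.

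**Figure D1:**
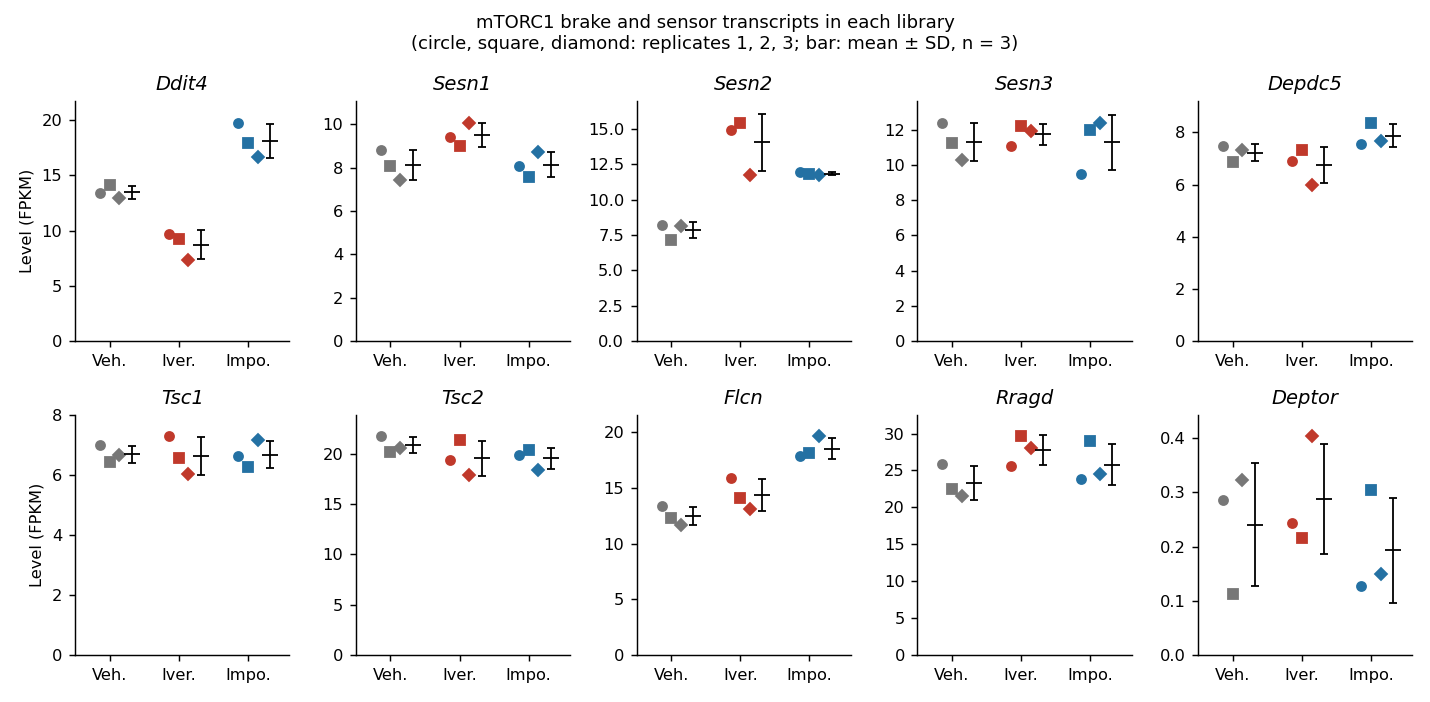
Level in FPKM of the 10 genes in each of the 9 libraries, by group (grey, vehicle; red, ivermectin; blue, importazole), with the group mean ± SD as a black bar. Each axis starts at 0 and has its own range: Ddit4 separates all 3 groups, Sesn2 is above vehicle in both compound groups, Flcn is above vehicle in importazole, and Deptor stays under 0.5 FPKM.

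Ddit4 moved apart between the compounds. Its protein relays hypoxia and other stresses to the TSC complex, which then restrains mTORC1. Its level was 13.4, 14.1 and 12.9 FPKM in vehicle 1, 2 and 3, 9.70, 9.22 and 7.29 FPKM in ivermectin 1, 2 and 3, and 19.8, 17.9 and 16.7 FPKM in importazole 1, 2 and 3. No library of one group reached into the range of another, with ivermectin low, vehicle in the middle and importazole high. With ivermectin Ddit4 fell to 0.649 of the vehicle mean, a log2 change of -0.58 ± 0.103 (SE; limma adjusted p = 0.0106). Without both libraries that list Yam1 at 0 the change was -0.44 and the call ended (limma adjusted p = 0.0724), as it did with no filter on low values (limma adjusted p = 0.127). With importazole the mean was 1.35 times that of vehicle, a log2 difference of 0.40 ± 0.103 that did not pass (limma adjusted p = 0.0812). It passed in a fit to the 6 libraries of vehicle and importazole (limma adjusted p = 0.0379) and without ivermectin 3 (limma adjusted p = 0.0239). The compounds differed directly by -0.98 ± 0.103 (limma adjusted p = 3.31e-04), with the ivermectin mean at 0.482 of the importazole mean, and by -0.87 without both libraries that list Yam1 at 0 (limma adjusted p = 0.00128).

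Sesn2 rose with both compounds. Its level was 8.21, 7.18 and 8.15 FPKM in vehicle, 14.97, 15.5 and 11.8 FPKM in ivermectin, and 11.9, 11.8 and 11.7 FPKM in importazole, each in the order of replicates 1, 2 and 3. All 6 libraries from treated cells lay above the 3 vehicle libraries, while ivermectin 3 lay within the range of importazole. The mean with ivermectin was 1.79 times that of vehicle, a log2 change of 0.76 ± 0.100 (limma adjusted p = 0.00146). The mean with importazole was 1.51 times that of vehicle, a log2 change of 0.54 ± 0.100 (limma adjusted p = 0.0184). The importazole call ended when vehicle 2, vehicle 3, importazole 1, importazole 2 or importazole 3 was left out, with adjusted p from limma between 0.0529 and 0.0851 and log2 changes from 0.48 to 0.56. It also ended with no filter on low values (limma adjusted p = 0.192). The direct difference between the compounds was 0.22 (95% interval 0.0011 to 0.44), which did not pass (limma adjusted p = 0.261). Both comparisons with vehicle use the same 3 vehicle libraries.

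The other sestrins did not pass in any comparison. Sesn1, a p53 target in other cells, was at 8.83, 8.05 and 7.44 FPKM in vehicle, 9.43, 8.97 and 10.1 FPKM in ivermectin, and 8.09, 7.58 and 8.74 FPKM in importazole. The ivermectin libraries lay just above those of both other groups, with a log2 difference from vehicle of 0.21 (95% interval 0.015 to 0.40; limma adjusted p = 0.212). Sesn3, a FOXO target in other cells, ran from 9.48 to 12.4 FPKM over all 9 libraries with the 3 groups overlapping, and its log2 differences from vehicle were 0.05 (95% interval -0.18 to 0.28) with ivermectin and -0.0064 (-0.24 to 0.22) with importazole. The FPKM of the sestrins summed to 27.2 ± 1.91 in vehicle, 35.3 ± 1.45 with ivermectin and 31.2 ± 1.68 with importazole. Sesn2 made up 28.9% ± 2.35 of that sum in vehicle, 39.8% ± 4.26 with ivermectin and 37.95% ± 2.39 with importazole (SD, n = 3). Sesn3 had the highest FPKM of the sestrins in each vehicle library, and Sesn2 did in ivermectin 1, ivermectin 2 and importazole 1.

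The ratio of Sesn2 to Ddit4 within a library does not depend on the scaling between libraries. It was 0.612, 0.509 and 0.631 in vehicle 1, 2 and 3, 1.54, 1.68 and 1.61 in ivermectin, and 0.604, 0.659 and 0.703 in importazole. The ivermectin libraries stood apart from the other 6, and those of vehicle and importazole overlapped. This follows from the Sesn2 and Ddit4 levels given above and is not a separate result. The ratio was 1.61 ± 0.0665 with ivermectin, 0.584 ± 0.0656 in vehicle and 0.656 ± 0.0495 with importazole (SD, n = 3), and no test was made of it.

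**Figure D2:**
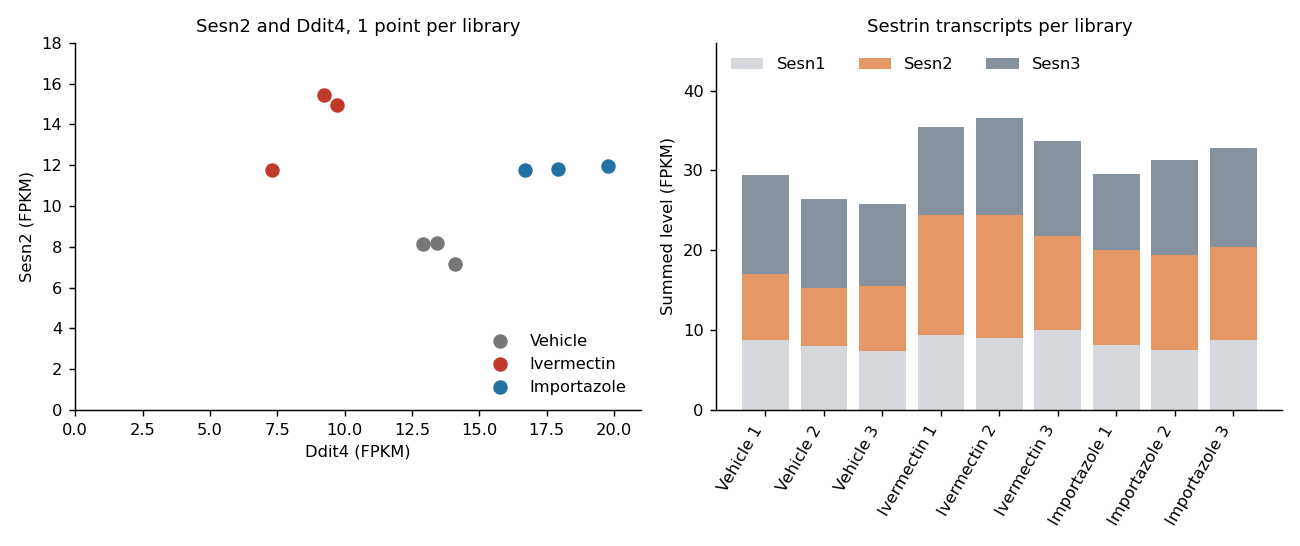
Left, the level of Sesn2 against that of Ddit4, both in FPKM, with 1 point per library. Right, the FPKM of Sesn1, Sesn2 and Sesn3 stacked for each library. The ivermectin points lie at low Ddit4 (7.29 to 9.70 FPKM) and the importazole points at high Ddit4 (16.7 to 19.8 FPKM), both above the vehicle points in Sesn2, and Sesn2 takes a larger share of the stack in the treated libraries.

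Folliculin rose with importazole. Flcn encodes a GTPase-activating protein for RagC and RagD, and loss of its activity lets the lysosomal transcription factors TFEB and TFE3 enter the nucleus. Its level was 13.3, 12.3 and 11.7 FPKM in vehicle, 15.9, 14.1 and 13.1 FPKM in ivermectin, and 17.9, 18.1 and 19.6 FPKM in importazole. The importazole libraries lay above all others, and ivermectin 3 lay within the vehicle range. With importazole the mean was 1.49 times that of vehicle, a log2 change of 0.54 ± 0.0850 (limma adjusted p = 0.00694; 0.101 with no filter on low values). With ivermectin the log2 difference from vehicle was 0.19 (95% interval 0.0021 to 0.38), which did not pass (limma adjusted p = 0.237). The compounds differed by -0.35 (95% interval -0.54 to -0.16), just short of the threshold (limma adjusted p = 0.0521). That difference passed without ivermectin 1 (limma adjusted p = 0.0389) and with a filter at 5 FPKM (limma adjusted p = 0.0425).

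Rragd, the GTPase gene on which folliculin acts, did not pass. It was at 25.9, 22.5 and 21.6 FPKM in vehicle, 25.6, 29.6 and 28.0 FPKM in ivermectin, and 23.8, 29.0 and 24.5 FPKM in importazole, and the groups overlapped. Its log2 difference from vehicle was 0.24 (95% interval 0.029 to 0.45; limma adjusted p = 0.188) with ivermectin and 0.14 (-0.075 to 0.35; limma adjusted p = 0.529) with importazole. Depdc5 is a subunit gene of GATOR1, the complex that switches RagA and RagB off. Its level was 7.47, 6.85 and 7.34 FPKM in vehicle, 6.92, 7.31 and 5.97 FPKM in ivermectin, and 7.56, 8.38 and 7.68 FPKM in importazole. The importazole libraries of Depdc5 lay above those of both other groups, with a log2 difference of 0.11 from vehicle (95% interval -0.083 to 0.30; limma adjusted p = 0.591).

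Neither gene of the TSC complex passed in any comparison. Tsc1, the stabilising subunit gene, was at 6.02 to 7.28 FPKM over all 9 libraries, and Tsc2, which carries the activity towards Rheb, was at 17.9 to 21.8 FPKM. For Tsc1 the 95% intervals of the log2 difference from vehicle ran from -0.21 to 0.18 with ivermectin and from -0.20 to 0.19 with importazole. For Tsc2 they ran from -0.26 to 0.080 and from -0.26 to 0.083. The FPKM of Tsc2 was 3.12 ± 0.0267 times that of Tsc1 in vehicle, 2.96 ± 0.297 times with ivermectin and 2.95 ± 0.345 times with importazole. Exons of Tsc2 share 693 annotated bases with Pkd1 on the opposite strand, and no source used here says whether the authors' FPKM made use of strand, so its level is uncertain.

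Of the 9 tested genes, 1 rose and 1 fell with ivermectin, where 4.31% of all genes tested were called, 1.79% upward and 2.52% downward. With importazole 2 rose and 0 fell, where 2.26% of all genes were called, 1.69% upward and 0.565% downward. In the direct comparison 0 were higher and 1 was lower with ivermectin, where 3.42% of all genes were called, 0.714% higher and 2.71% lower. Among all genes called, the split of higher to lower moved with scaling: with importazole 192 to 64 became 159 to 117 after quantile and 159 to 118 after median-of-ratios scaling, and between the compounds 81 to 307 became 191 to 274 and 161 to 280. Under both scalings the 5 calls among the 9 genes kept their direction and passed. The libraries of the groups did not overlap for 3 of the 9 genes with ivermectin and vehicle, against 24.6% of all genes tested. They did not overlap for 4 with importazole and vehicle, against 23.6%, and for 4 between the compounds, against 24.2%. The median log2 difference of the 9 genes was 0.05 with ivermectin, 0.11 with importazole and -0.0035 between the compounds, beside 0.01, 0.04 and -0.03 over all genes tested.

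**Figure D3:**
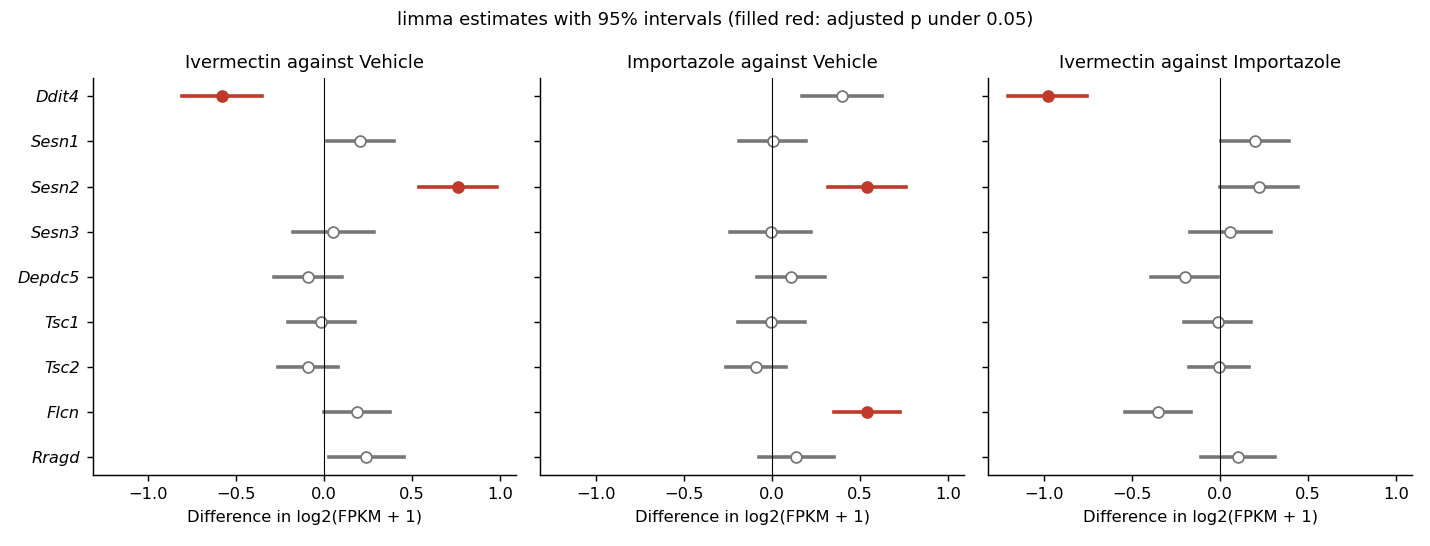
Difference in log2(FPKM + 1) for the 9 tested genes in each comparison, with 95% intervals from limma; filled red points passed at an adjusted p under 0.05. Ddit4 and Sesn2 passed with ivermectin, Sesn2 and Flcn with importazole, and Ddit4 between the compounds.

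The upstream sequences of Ddit4, Sesn2 and Flcn are shown because these were the genes that changed, and they changed in different patterns. On GRCm38, Ddit4 lies on chromosome 10 (59949669 to 59951834, minus strand), Sesn2 on chromosome 4 (132492032 to 132510501, minus strand) and Flcn on chromosome 11 (59791408 to 59810016, minus strand), per GENCODE M21. The sequences are from RefSeq (GRCm38.p6), are written 5′ to 3′ on the gene's strand, and stop before the start of the gene in both RefSeq and GENCODE. Capitals mark ACGTG and GCGTG, the core motifs read by the hypoxia-inducible factors.
Ddit4 upstream, chr10:59951835-59952020, minus strand: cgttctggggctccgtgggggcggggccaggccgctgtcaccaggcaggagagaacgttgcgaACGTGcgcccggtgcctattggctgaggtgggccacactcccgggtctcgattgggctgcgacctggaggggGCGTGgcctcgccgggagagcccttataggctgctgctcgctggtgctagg
Sesn2 upstream, chr4:132510502-132510706, minus strand: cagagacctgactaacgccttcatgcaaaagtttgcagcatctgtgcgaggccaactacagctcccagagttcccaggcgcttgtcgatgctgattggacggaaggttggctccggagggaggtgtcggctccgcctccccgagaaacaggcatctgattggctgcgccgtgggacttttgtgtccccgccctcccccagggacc
Flcn upstream, chr11:59810040-59810289, minus strand: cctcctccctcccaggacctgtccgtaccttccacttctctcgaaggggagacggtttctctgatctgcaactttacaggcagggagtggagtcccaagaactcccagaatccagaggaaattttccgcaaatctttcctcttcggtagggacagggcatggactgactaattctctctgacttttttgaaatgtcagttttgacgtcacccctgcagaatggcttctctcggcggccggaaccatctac
The 250 bases before each RefSeq start were searched on both strands in 10 windows of 9 of the genes, Sesn1 having 2 and Deptor none. In the Ddit4 window ACGTG began 187 bases and GCGTG 115 bases before the start. ACGTG was found in 1 of the 9 genes, Ddit4, and in 16.6% of 32817 windows of the same length. GCGTG was found in 5 (Ddit4, Sesn1, Tsc1, Tsc2 and Depdc5) and in 28.1% of windows. Sesn1 matched in 1 of its 2 windows, so a count of genes and a share of windows are not quite the same measure. The ATF4 element TGATGNAA and the E-box CACGTG, which contains ACGTG and is read by TFEB and TFE3, were found in 0 of the 9 genes and in 3.45% and 6.02% of windows. A match is a description of these letters and not a binding site.

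Genes of the stress pathways that are known to act on Ddit4 and Sesn2 were read beside them, from lists chosen with earlier results of these data known. Of 7 tested genes of the ATF4 response, 6 rose with each compound, with medians of 1.12 (ivermectin) and 0.99 (importazole) on the log2 scale, where 4.31% and 2.26% of all genes were called and the medians of all genes were 0.01 and 0.04. Among them Trib3, a pseudokinase gene, was at 12.3 ± 0.692 FPKM in vehicle, 51.6 ± 1.05 FPKM with ivermectin and 39.8 ± 1.97 FPKM with importazole. Of 10 tested HIF targets, 9 fell with ivermectin and 0 passed with importazole, with medians of -0.9985 and 0.04. The mitophagy receptor gene Bnip3 was at 41.7 ± 1.497, 9.93 ± 0.546 and 43.3 ± 2.71 FPKM in vehicle, ivermectin and importazole. All 10 tested HIF targets were called lower with ivermectin than with importazole, where 3.42% of all genes were called and 2.71% were lower. The part of either pathway in the levels of Ddit4 or Sesn2 was not tested.

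The genes whose pattern over the 9 libraries was most like those that changed were found by Pearson's r of log2(FPKM + 1) among 7598 other genes with a mean of at least 5 FPKM. All genes share the same 9 libraries, and r, which does not measure the size of a change, is given as a description. For Ddit4 they were Spry1 (r = 0.98), an inhibitor of growth factor signalling, Gadd45b (r = 0.97), a stress-inducible gene, and Mcm10 (r = 0.97), a replication factor. Gadd45b was at 5.52 ± 0.542 FPKM in vehicle, 3.46 ± 0.502 FPKM with ivermectin and 6.99 ± 0.617 FPKM with importazole. For Sesn2 they were Fam129a (r = 0.97), the cysteinyl-tRNA synthetase gene Cars (r = 0.97) and the neutral amino acid transporter gene Slc1a4 (r = 0.96). Slc1a4 was at 5.30 ± 0.206 FPKM in vehicle, 12.6 ± 0.546 FPKM with ivermectin and 10.05 ± 0.437 FPKM with importazole. For Flcn they were Plin3 (r = 0.95), a lipid droplet coat protein gene, Sf3b3 (r = 0.95), a splicing factor gene, and Ptpn9 (r = 0.95), a phosphatase gene. Some of these genes differed little between groups. In vehicle, ivermectin and importazole, Sf3b3 was at 83.9 ± 1.51, 86.4 ± 2.56 and 90.6 ± 1.90 FPKM. In the same order Mcm10 was at 11.1 ± 0.102, 10.2 ± 0.148 and 11.7 ± 0.262 FPKM.

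Most other genes of the pathway did not pass. Of 73 tested genes in 8 lists covering the mTOR complexes, Rag and Ragulator, GATOR and amino acid sensors, folliculin partners, Rheb, AMPK, growth factor inputs and mTORC1 substrates, 3 rose and 1 fell with ivermectin, 5 rose and 0 fell with importazole, and 1 was lower with ivermectin than with importazole. These were 5.48%, 6.85% and 1.37% of the 73 genes, beside 4.31%, 2.26% and 3.42% of all genes tested, so the share with ivermectin was near that of all genes. The medians of the 73 genes were 0.03, 0.04 and -0.03 on the log2 scale, beside 0.01, 0.04 and -0.03 over all genes tested. Among the folliculin partners and their transcription factors, 1 of 5 rose with each compound. This was Fnip2, which forms a complex with folliculin, at 5.09 ± 0.325 FPKM in vehicle, 7.94 ± 0.449 FPKM with ivermectin (log2 change 0.55, limma adjusted p = 0.00486; 0.0547 with no filter on low values) and 8.69 ± 0.778 FPKM with importazole (0.67, limma adjusted p = 0.00216). Its partner Flcn passed with importazole as well and did not pass with ivermectin.

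Among 14 GATOR and sensor genes 1 rose with each compound. Lars, the leucyl-tRNA synthetase gene, was at 12.5 ± 0.362 FPKM in vehicle, 20.4 ± 1.22 FPKM with ivermectin and 18.2 ± 0.411 FPKM with importazole (limma adjusted p = 2.55e-04 and 0.00216). Among 8 Rag and Ragulator genes 0 passed with ivermectin and 1 rose with importazole. Rragc, the close relative of Rragd, was at 17.0 ± 0.810 FPKM in vehicle, 20.2 ± 1.25 FPKM with ivermectin (limma adjusted p = 0.0913) and 22.0 ± 0.749 FPKM with importazole (limma adjusted p = 0.0247). The Rragc call ended when vehicle 2, vehicle 3 or any importazole library was left out, with adjusted p from limma up to 0.108. It also ended without both libraries that list Yam1 at 0 (0.0935) and with no filter (0.138).

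Among 14 growth factor inputs 1 fell with ivermectin and 0 passed with importazole. Irs2, an adaptor of the insulin receptor, was at 4.44 ± 0.150 FPKM in vehicle, 2.76 ± 0.181 FPKM with ivermectin (log2 change -0.53, limma adjusted p = 0.00509) and 3.70 ± 0.262 FPKM with importazole (limma adjusted p = 0.256). Among 12 mTORC1 substrates and effectors 1 rose with ivermectin. Eef2k, a kinase gene that slows translation elongation, was at 4.995 ± 0.0853 FPKM in vehicle and 7.75 ± 1.03 FPKM with ivermectin (limma adjusted p = 0.0137). The Eef2k call ended without vehicle 2 (limma adjusted p = 0.0511) and with no filter (0.127). Its level with importazole was 6.33 ± 0.609 FPKM, with all libraries above those of vehicle, and did not pass (limma adjusted p = 0.184). With importazole 2 substrates rose: the translation repressor gene Eif4ebp1, from 148 ± 9.47 to 182 ± 4.11 FPKM (limma adjusted p = 0.0394), and the lipid enzyme gene Lpin1, from 19.7 ± 0.777 to 24.2 ± 0.683 FPKM (limma adjusted p = 0.0407). Neither passed with ivermectin. Eif4ebp1 was then at 172 ± 7.22 FPKM, with all libraries above those of vehicle (limma adjusted p = 0.0885), and Lpin1 at 20.3 ± 0.51 FPKM (limma adjusted p = 0.717). The Eif4ebp1 call ended without vehicle 2, vehicle 3, ivermectin 1, ivermectin 2 or any importazole library (limma adjusted p up to 0.152), without both libraries that list Yam1 at 0 (0.115) and with no filter (0.198). The Lpin1 call ended when any 1 library except ivermectin 3 was left out (limma adjusted p up to 0.160) and after quantile or median-of-ratios scaling (0.0855 and 0.0729). It also ended without both libraries that list Yam1 at 0 (limma adjusted p = 0.133), with no filter (0.125) and in the 6 libraries compared (0.057).

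Among 8 genes of the mTOR kinase complexes 0 passed against vehicle. Mtor itself was at 15.5 to 18.1 FPKM in vehicle, 18.2 to 18.7 FPKM with ivermectin and 16.8 to 17.5 FPKM with importazole. Akt1s1, whose product PRAS40 inhibits mTORC1, was lower with ivermectin (24.0 ± 1.38 FPKM) than with importazole (34.2 ± 1.30 FPKM, limma adjusted p = 0.0394). It was at 29.2 ± 5.75 FPKM in vehicle, where vehicle 1 stood at 35.8 FPKM and vehicle 2 and 3 at 26.8 and 25.1 FPKM. Its call ended without vehicle 2 or any ivermectin or importazole library (limma adjusted p up to 0.128), without both libraries that list Yam1 at 0 (0.0853) and with no filter (0.274). Among 9 AMPK genes and the 3 tested of Rheb, its relative and the TSC partner, 0 passed in any comparison.

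**Figure D4:**
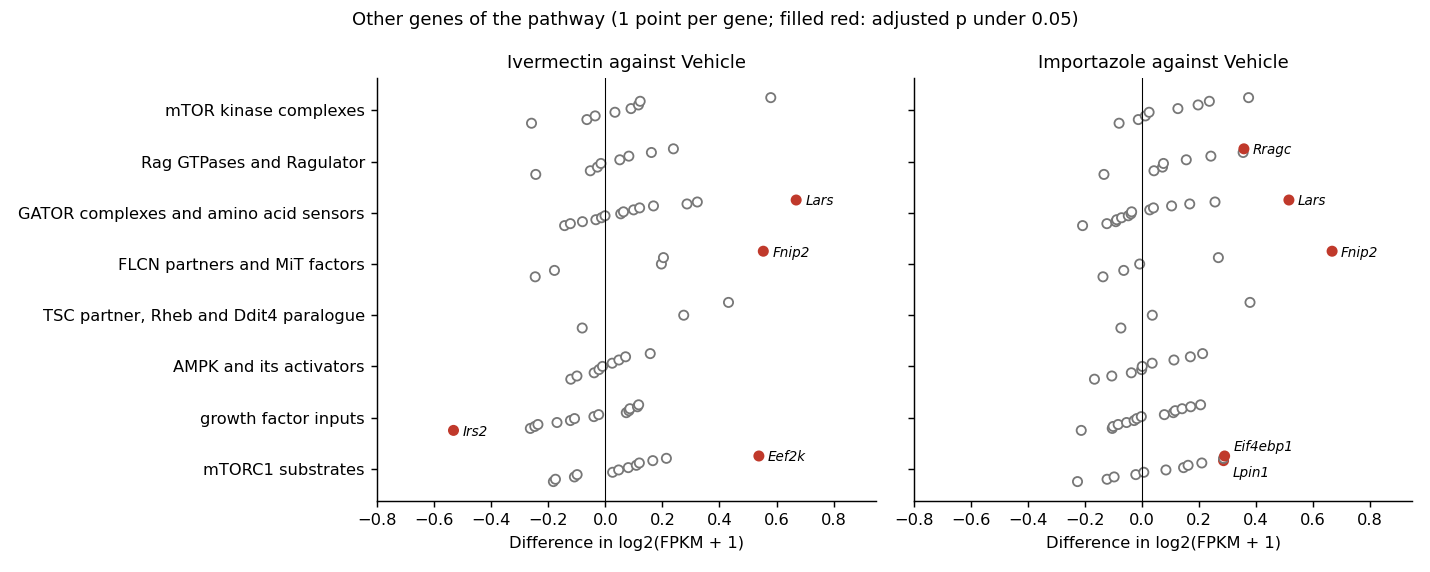
Difference in log2(FPKM + 1) from vehicle for the tested genes of the 8 pathway lists, with ivermectin at left and importazole at right and 1 point per gene; the vertical offset within a list only separates points. Filled red points passed at an adjusted p under 0.05: Lars, Fnip2, Irs2 and Eef2k with ivermectin, and Rragc, Lars, Fnip2, Eif4ebp1 and Lpin1 with importazole.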

How the data were processed

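Poly(A) RNA of 9 HL-1 libraries, 3 per group, was sequenced on an Ion Proton, per the labels' protocols. Sample titles gave the group and the replicate number. Per the file headers, the authors deposited 1 FPKM value per gene symbol. STAR, Bowtie2, Bowtie and Cufflinks and the builds mm10 and GRCm38 are named in the submitters' processing notes. The sources used here do not give versions, annotation, strand use or filters. FPKM depends on the library total, so loss of an abundant transcript can raise all other values. Depth is unknown, and counting intervals were not possible.

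Files held 25230 lines and 25175 symbols, of which 48 were repeated and had their values summed. The 11337 genes reaching 1 FPKM in 3 or more libraries were analysed as log2(FPKM + 1). Group was the only term of the limma 3.58.1 fit (R 4.3.3, intensity trend, robust moderation), which used all 9 libraries. Genes with a two-sided Benjamini-Hochberg adjusted p under 0.05 over all 11337 were called changed, and 95% intervals are from the same fit, unadjusted. The procedure was also run on simulated data with independent noise for each gene, and no result here rests on that run. The genes, lists and tests were chosen with earlier results of these data known. All 10 genes are named, with pathway genes past the threshold and the 3 genes most alike in pattern, leaving out predicted genes, small RNAs, pseudogenes and unnamed loci. The markers named and Mtor were chosen after their values were seen. Locations are from GENCODE M21 (GRCm38). Of 79 pathway symbols 78 were in the files and 73 were tested.

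Alternatives were leaving out each library or both that list Yam1 at 0, pseudocounts of 0.1 and 0.5, filters of none and 5 FPKM, quantile and median-of-ratios scaling, a fit to the 6 libraries compared and a replicate block. Python 3.11.15 with matplotlib 3.10.9 drew the figures.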

Additional observations from a re-analysis of the deposited data

How the results depend on the processing

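Each comparison was repeated under 18 alternatives. Of the 5 calls among the 9 tested genes, 0 changed direction. Sesn2 with ivermectin (log2 change 0.69 to 0.88) and Ddit4 between the compounds (-1.05 to -0.87) passed under all 18, and Flcn with importazole (0.49 to 0.59) under all but no filter (limma adjusted p = 0.101). Of 486 repeated values 26 changed sign, all for differences with an adjusted p of at least 0.815 at first and none beyond 0.1033 in size. Sesn1 with importazole was -0.0368 after median-of-ratios scaling and -0.0507 after quantile normalization. Between the compounds Tsc1 was 0.0207 and 0.0181 and Tsc2 0.0314 and 0.0477 under the same scalings, and 0.0463 and 0.0557 when both libraries listing Yam1 at 0 were left out, as Tsc1 with ivermectin then was 0.0176. Leaving out each library gave, with importazole, -0.0479 to 0.0620 for Sesn1, -0.0734 to 0.1033 for Sesn3 and -0.0479 to 0.0356 for Tsc1; with ivermectin, -0.0088 to 0.1159 for Sesn3 and -0.0765 to 0.0425 for Tsc1; and between the compounds, -0.0506 to 0.1262 for Sesn3, -0.0726 to 0.0463 for Tsc1 and -0.0669 to 0.0557 for Tsc2.

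Counts are given in the order ivermectin with vehicle, importazole with vehicle, and between the compounds. The main counts were 2, 2 and 1 of the 9 genes, 4, 5 and 1 of 73 pathway genes and 489, 256 and 388 of all genes. Without a filter they were 1, 0 and 1, then 2, 2 and 0, then 132, 74 and 108; this fit holds 2421 symbols at 0 in every library. With both libraries listing Yam1 at 0 left out, 1 of the 9 genes passed with ivermectin, 2 and 0 pathway genes in the other comparisons, and 195, 161 and 233 of all genes, with fewer samples in the fit. Between the compounds 2 of the 9 genes passed with a filter at 5 FPKM, and 2 pathway genes after quantile and after median-of-ratios scaling. With the 6 libraries compared, 274 of all genes passed with ivermectin. Leaving out each library gave 2 in each case, 1 to 3 and 1 to 2 of the 9 genes, 3 to 5, 2 to 5 and 0 to 1 pathway genes, and 243 to 399, 128 to 320 and 177 to 396 of all genes; Ddit4 with importazole was the third gene, without ivermectin 3. With the replicate number as a block, 2 pathway genes passed with importazole and 0 between the compounds, and 354, 175 and 257 of all genes passed; the calls of Rragc, Eif4ebp1, Lpin1, Akt1s1, Ctsd and Eda2r ended and no call among the 9 genes did. The labels do not say what a number shares, and same-numbered libraries correlated in their deviations by -0.2095 to 0.1450, so the numbers were not taken as pairs. Where no cause is named, the cause was not tested.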

Other observations

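Other known inputs to these genes were read from lists chosen with earlier results of these data known. Over all genes tested 4.31% were called with ivermectin and 2.26% with importazole, with median log2 differences of 0.01 and 0.04. Of 11 tested p53 targets, a class to which Sesn1 and Sesn2 belong in other cells, 2 rose with ivermectin and 0 passed with importazole, with medians of 0.11 and 0.21 on the log2 scale. The 2 were Ccng1 and Eda2r. Ccng1 was at 26.85 ± 0.944 FPKM in vehicle, 34.2 ± 2.32 FPKM with ivermectin (limma adjusted p = 0.0244) and 32.7 ± 1.87 FPKM with importazole. Its call was not followed under the alternatives. Eda2r, a death receptor gene, was at 4.16 ± 0.540 FPKM in vehicle, 6.12 ± 0.392 FPKM with ivermectin (limma adjusted p = 0.0329) and 5.06 ± 0.608 FPKM with importazole. The Eda2r call ended without vehicle 2, vehicle 3 or any ivermectin library (limma adjusted p up to 0.120), without both libraries that list Yam1 at 0 (log2 change 0.37 in place of 0.47, adjusted p = 0.225), with no filter (0.208) and in the 6 libraries compared (0.059). Of 7 FOXO targets, a class to which Sesn3 belongs, 0 passed in any comparison, with medians of -0.02 and 0.05. Of 13 tested lysosomal targets of TFEB and TFE3, a class to which Flcn and Rragd belong, 0 passed with ivermectin and 1 rose with importazole, with medians of 0.11 and 0.20. This was the protease gene Ctsd, at 286 ± 8.40 FPKM in vehicle, 318 ± 12.4 FPKM with ivermectin and 347 ± 6.44 FPKM with importazole (limma adjusted p = 0.0269). The Ctsd call ended without vehicle 2, vehicle 3, ivermectin 2 or any importazole library (limma adjusted p up to 0.119) and after quantile normalization, where its log2 change was 0.17 in place of 0.28 (0.0887). It also ended without both libraries that list Yam1 at 0 (limma adjusted p = 0.0581) and with no filter (0.101).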
